A study of Homo sapiens with 6 samples.

Results

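The regulators of mitochondrial biogenesis that work with the PGC1 coactivators were followed in WM164, an established human melanoma cell line. The genes are PPARGC1A, a known target of the melanocyte transcription factor MITF, its relatives PPARGC1B and PPRC1, the nuclear receptors ESRRA and ESRRG, the transcription factors NRF1 and GABPA, and TFAM, TFB2M and POLG, which serve the mitochondrial genome. They were taken by symbol and make up 10 of the 58870 gene rows of the count table. RNA sequencing had been carried out on 6 libraries, 3 from cells overexpressing green fluorescent protein (GFP) and 3 from cells labelled T-MGM, a fusion of the melanocyte form of MITF and the small MAF protein MAFG through a flexible linker. Per the study's methods, both constructs were lentiviral, were driven by the constitutive EF1α promoter and carried blasticidin resistance, so the control cells also received virus and a foreign protein. All cells grew in RPMI with 5% fetal bovine serum. Neither the time after infection nor whether the transduced cells were a pool or a clone was given in the sources used here, and nothing states that the 3 libraries of a group came from separate cultures. P-values therefore measure the spread between these libraries, which may be technical.

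PGC1α (PPARGC1A), PGC1β (PPARGC1B) and PRC (PPRC1) bind no DNA themselves. They dock on transcription factors such as the estrogen-related receptors (ESRRA, ESRRG), nuclear respiratory factor 1 (NRF1) and the GA-binding protein (GABPA, also called nuclear respiratory factor 2), and raise transcription of nuclear genes for mitochondrial proteins. Among these targets are TFAM and TFB2M, which start transcription of mitochondrial DNA and, in the case of TFAM, package it, while POLG is the catalytic subunit of the polymerase that copies it. In melanocytic cells MITF is known to activate PPARGC1A, and melanomas with high PGC1α are known for strong oxidative metabolism. NRF1 and GABPA as used here are not NFE2L1 and NFE2L2, the partners of small MAF proteins that share the NRF abbreviations.

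The construct genes gave no clear check of the labels. MAFG was at 2458 ± 70.3 normalized counts in GFP, against 2358 ± 34.9 in the T-MGM-labelled libraries (SD, n = 3 per group; log2 ratio -0.06, SE 0.04, adjusted p = 0.236, DESeq2), lower in every library than in GFP although the construct holds it. MITF was higher in every T-MGM-labelled library, by 0.08 on the log2 scale (adjusted p = 4.8e-07, DESeq2), but its sign turned in TPM values. Directions below rest on the labels. Total counts were 35057239 to 38738065 per GFP library and 44577774 to 59250663 per T-MGM-labelled library. Of 7 melanocytic markers, MITF, SOX10, PMEL, MLANA, TYR and DCT were well expressed and TYRP1 was near 0, and their summed level was 963.9 to 976.9 TPM (transcript abundance scaled for length and depth) in GFP and 831.2 to 864.9 TPM in the T-MGM-labelled libraries. MLANA (-0.68), TYR (-0.35) and DCT (-2.49) passed the test downwards, and did so under total-count scaling, after correction for GC content and length and in TPM values. MITF (0.08), SOX10 (0.11) and PMEL (0.05) passed it upwards, although the sign of each turned under another scaling. Of 12 markers of keratinocytes, blood, endothelium, fibroblasts, muscle and fat, 7 had at most 3 counts in every library, and the list summed to 3.74 to 4.69 TPM in GFP and 4.4 to 6.16 TPM in T-MGM. Within that list LUM, a proteoglycan of fibroblasts, rose from 303.9 ± 16.8 to 515.8 ± 29.4 normalized counts (SD, n = 3 per group; log2 ratio 0.77, SE 0.10, adjusted p = 1.47e-13, DESeq2). LUM also passed under total-count scaling and after correction for GC content and length, but not in TPM values (0.34, adjusted p = 0.0607, limma). The part of these marker differences in the results below was not tested.

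The bases upstream of the start sites are shown first for the MITF target PPARGC1A and for PPARGC1B and TFAM, the genes that differed. Each sequence is the 250 bases before the start of the canonical transcript in GENCODE release 44, on the gene's own strand of GRCh38, 5′ to 3′. Capitals mark the M-box core CATGTG, a sequence that MITF can bind, in PPARGC1A and TGCTGA, part of the recognition element of MAF proteins, in PPARGC1B. The windows lie at chr4:23890048-23890297 on the minus strand, chr5:149730060-149730309 on the plus strand and chr10:58385160-58385409 on the plus strand. Other annotated transcripts of the same gene have exons over 112, 12 and 65 of the 250 bases.
PPARGC1A-201: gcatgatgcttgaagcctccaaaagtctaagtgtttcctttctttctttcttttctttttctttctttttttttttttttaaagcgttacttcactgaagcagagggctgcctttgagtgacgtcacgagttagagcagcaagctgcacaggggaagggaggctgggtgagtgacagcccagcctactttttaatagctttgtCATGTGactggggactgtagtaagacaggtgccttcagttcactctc
PPARGC1B-201: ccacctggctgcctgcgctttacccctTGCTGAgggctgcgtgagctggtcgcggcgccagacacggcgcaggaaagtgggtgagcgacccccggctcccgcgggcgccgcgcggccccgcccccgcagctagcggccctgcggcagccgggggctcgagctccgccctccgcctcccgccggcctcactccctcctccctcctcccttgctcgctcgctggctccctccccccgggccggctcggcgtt
TFAM-204: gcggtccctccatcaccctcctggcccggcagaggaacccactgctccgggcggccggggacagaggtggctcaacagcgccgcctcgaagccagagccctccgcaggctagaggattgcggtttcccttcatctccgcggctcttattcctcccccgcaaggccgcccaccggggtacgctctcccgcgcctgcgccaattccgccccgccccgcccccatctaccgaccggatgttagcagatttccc
The motif in PPARGC1A lies 47 to 42 bases before the start and that in PPARGC1B 223 to 218 bases before it. Both strands were searched for these elements, the E-box CACGTG, the AP-1 core TGACTCA, the nuclear respiratory factor 1 palindrome, the ETS site CCGGAAG of GABPA and the estrogen-related receptor element AAGGTCA. No exact match was found in the TFAM window, although it holds gcgcctgcgc, which is close to the palindrome. Over the 10 genes, CATGTG occurred also in the ESRRA window and CCGGAAG in the GABPA window, and the other elements occurred in none. All 250 bases of the GABPA window lie in exons of other annotated GABPA transcripts. Among windows of the same length at 20033 protein-coding genes, CATGTG was present in 7.09%, TGCTGA in 12.0%, CCGGAAG in 11.9%, CACGTG in 7.87%, TGACTCA in 3.07%, AAGGTCA in 2.56% and the nuclear respiratory factor 1 palindrome in 1.48%. The windows of PPARGC1B and TFAM were 77.6% and 69.2% G or C, above the median of 63.2%, and that of PPARGC1A was 44.4%. A match of letters is a description and not a measured binding site, and the lack of an exact match does not show that a site is absent.

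Of the 10 regulators, PPARGC1B and TFAM were lower in the T-MGM-labelled libraries and the other 8, PPARGC1A among them, did not pass the test. A gene passed at a DESeq2 adjusted p at or under 0.05, as did 38.4% of the 19135 genes tested (19.2% in each direction) and 56.3% of those with a mean of at least 100 normalized counts. The 2 of 10 that passed, both downwards, were near the downward share of all genes. They were below both shares that count either direction, a difference that was not tested. In 4 of the 10 the libraries separated fully by normalized count, with T-MGM below in 3 and above in 1, beside 46.8% of tested genes. None changed over 2-fold, which 4.63% of tested genes did (3.26% upwards and 1.36% downwards). Log2 ratios are T-MGM over GFP. Their median over the 10 was -0.06, beside -0.0027 over all genes tested. In bulk RNA, fewer cells that express a gene and less of its RNA per cell cannot be told apart.

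**Figure D1:**
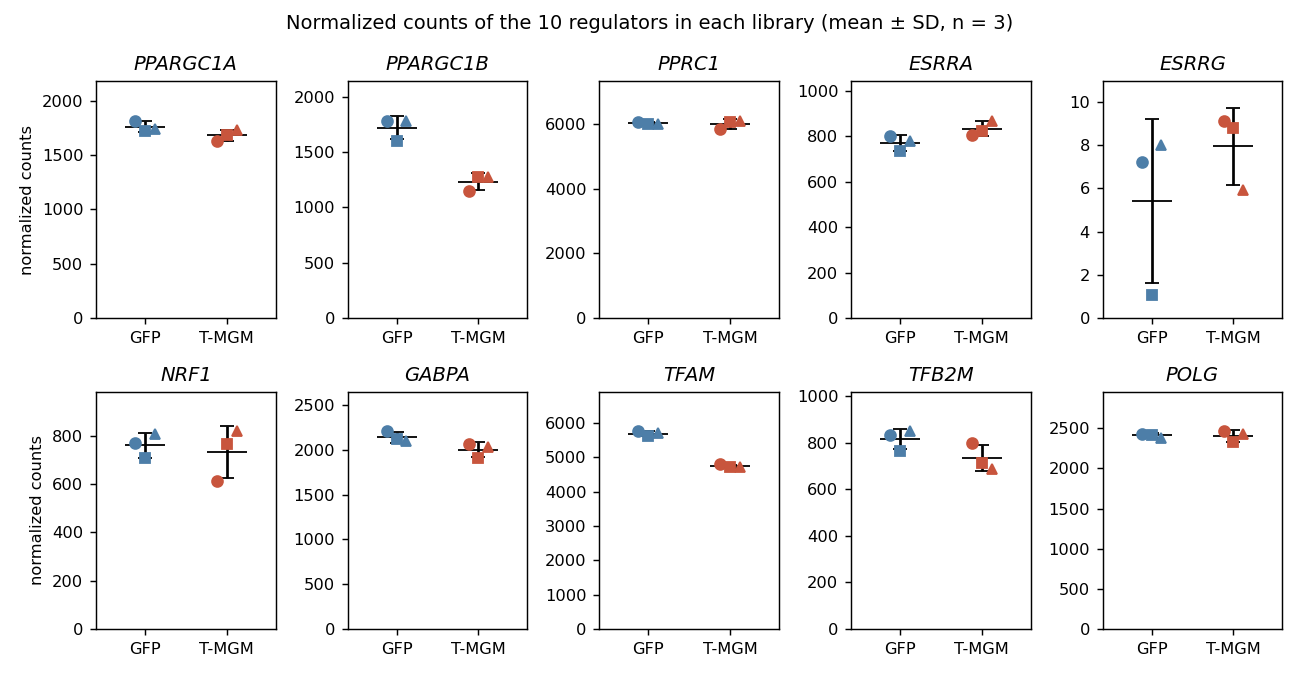
DESeq2 normalized counts (vertical axes, from 0) of the 10 regulators in the GFP libraries (blue) and the T-MGM-labelled libraries (red); circles, squares and triangles are replicates 1, 2 and 3, and bars give mean ± SD. The groups stand clearly apart for PPARGC1B and TFAM, whereas PPARGC1A, PPRC1 and POLG lie at nearly the same height, and ESRRG has fewer than 10 normalized counts everywhere.

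PPARGC1A (ENSG00000109819; chromosome 4, 23755041 to 23904089, minus strand, GRCh38) encodes the coactivator PGC1α. Its normalized counts were 1817, 1725 and 1740 in GFP replicates 1 to 3 against 1630, 1682 and 1733 in the T-MGM replicates. The groups overlapped, since T-MGM replicate 3 lay above GFP replicate 2. Means were 1760 ± 49.4 and 1682 ± 51.6 (SD, n = 3 per group), a log2 ratio of -0.06 (SE 0.05; adjusted p = 0.302, DESeq2). The 95% limits of the ratio, 0.898 to 1.02, did not reach a 2-fold change in either direction. With total counts as the scaling the value was -0.12 and passed (adjusted p = 0.0296, DESeq2), while correction for GC content and length turned it to 0.05 (adjusted p = 0.441, DESeq2), so the direction of this small difference was not settled.

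PPARGC1B (ENSG00000155846; chromosome 5, 149730298 to 149855022, plus strand) encodes PGC1β, which shares the receptor-binding and activation regions of PGC1α. Its normalized counts were 1776, 1599 and 1784 in GFP against 1145, 1277 and 1277 in the T-MGM-labelled libraries. Every T-MGM-labelled library lay below every GFP library. The mean fell from 1720 ± 105 to 1233 ± 76.2 (SD, n = 3 per group), by 28.2%, a log2 ratio of -0.48 (SE 0.06; 95% limits of the ratio 0.665 to 0.775; adjusted p = 3.47e-16, DESeq2). In size this change exceeded that of 89.6% of tested genes with a mean of at least 100 normalized counts. It kept its direction and its call in all 16 alternative fits, with values from -0.43 without T-MGM replicate 1 to -0.65 in TPM values with a pseudocount of 0.1.

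PPRC1 (chromosome 10, 102132994 to 102150333, plus strand), the serum-responsive relative, had 6071, 6005 and 5989 normalized counts in GFP against 5834, 6071 and 6101 in T-MGM. These values overlapped, with means of 6022 ± 43.9 and 6002 ± 146 (SD, n = 3 per group). The log2 fold change was -0.0041 (SE 0.03; 95% limits of the ratio 0.963 to 1.03; adjusted p = 0.928, DESeq2). After correction for GC content and length it was -0.10 and passed (adjusted p = 0.000245, DESeq2), and in TPM values it was -0.18 (adjusted p = 0.00633, limma), where the median gene was at -0.13.

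Because a single size factor affects all genes of a library alike, the family was also compared within each library. Correction for GC content and length differs by gene and is not removed by such ratios. It put PPARGC1A at 0.05, PPARGC1B at -0.49 and PPRC1 at -0.10. PPARGC1A had 1.023, 1.079 and 0.975 counts per PPARGC1B count in the GFP libraries, compared with 1.424, 1.317 and 1.358 in the T-MGM-labelled libraries. The ratio was therefore higher in every T-MGM-labelled library, at 1.366 ± 0.0539 against 1.026 ± 0.0518 (SD, n = 3 per group; 2-sided exact permutation p of 0.1, the smallest that 3 against 3 allows). Per length, PPRC1 made up most of the family, with 67.94% ± 3.76 of the summed TPM in GFP and 70.85% ± 1.58 in T-MGM. PPARGC1A supplied 22.02% ± 3.95 and 21.67% ± 1.46, with overlapping libraries. PPARGC1B supplied 10.04% ± 0.25 in GFP and 7.483% ± 0.584 in T-MGM, without overlap (SD, n = 3 per group; exact permutation p of 0.1). These comparisons were chosen after the values of the genes were known.

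**Figure D2:**
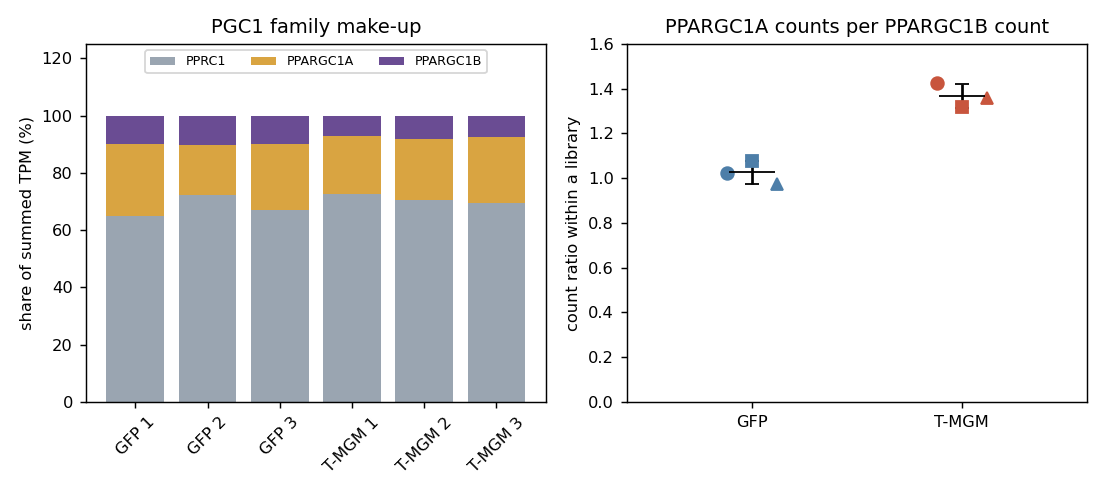
Left, share of the summed TPM of PPARGC1A, PPARGC1B and PPRC1 (vertical axis, percent) in each library; right, PPARGC1A counts divided by PPARGC1B counts in each library with mean ± SD (GFP blue, T-MGM red; symbols as replicates 1 to 3). PPARGC1B takes about 10% of the family in GFP and 7.483% on average in the T-MGM-labelled libraries, and the count ratio lies from 0.975 to 1.079 in GFP and from 1.317 to 1.424 in T-MGM.

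Among the nuclear receptors, ESRRA (chromosome 11, 64305497 to 64316743, plus strand), a main partner of both coactivators, had 803.4, 734.1 and 777.8 normalized counts in GFP against 806.5, 824.4 and 869.3 in T-MGM. All T-MGM-labelled libraries lay above the GFP libraries, replicate 1 of each by a narrow margin, a separation seen upwards in 23.4% of tested genes. The means of 771.8 ± 35.1 and 833.4 ± 32.4 (SD, n = 3 per group) gave a log2 ratio of 0.11 (SE 0.07; 95% limits of the ratio 0.985 to 1.19; adjusted p = 0.204, DESeq2), which did not pass and turned to -0.04 after correction for GC content and length and to -0.03 in TPM values. Part of the ESRRA exons (284 bases) overlaps TRMT112 on the other strand, and the labels and the study's methods disagree on whether libraries kept strand, so some reads of that stretch may belong to either gene. ESRRG (chromosome 1, 216503246 to 217137755, minus strand) had only 6, 1 and 7 raw counts in GFP against 10, 9 and 8 in T-MGM. At this depth its 95% limits spanned a ratio of 0.460 to 4.67 (adjusted p = 0.681, DESeq2), and a change in ESRRG was not detectable.

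The DNA-binding partners did not pass either. NRF1 (chromosome 7, 129611720 to 129757082, plus strand) had 768.7, 705.9 and 806.4 normalized counts in GFP against 612.1, 764.9 and 818.4 in T-MGM. The spread among T-MGM-labelled libraries was the wider, with replicate 1 the lowest of all 6. The log2 ratio of NRF1 was -0.05 (SE 0.09; 95% limits of the ratio 0.852 to 1.09; adjusted p = 0.717, DESeq2), and without T-MGM replicate 1 it was 0.06. GABPA (chromosome 21, 25734570 to 25772460, plus strand), the DNA-binding subunit of its complex, had 2210, 2123 and 2097 normalized counts in GFP against 2072, 1913 and 2033 in T-MGM. Every T-MGM-labelled library was below the GFP libraries, as in 23.4% of tested genes, by a log2 ratio of -0.09 (SE 0.04; 95% limits of the ratio 0.883 to 0.994; adjusted p = 0.0733, DESeq2). GABPA passed downwards with total-count scaling (-0.15, adjusted p = 0.00229, DESeq2) and in TPM values (-0.20, adjusted p = 0.0281, limma), yet turned to 0.07 after correction for GC content and length (adjusted p = 0.245, DESeq2). GABPA shares 692 exonic bases with ATP5PF on the other strand.

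TFAM (ENSG00000108064; chromosome 10, 58385345 to 58399220, plus strand), which bends and coats mitochondrial DNA, was the other gene that fell. Its normalized counts were 5758, 5613 and 5697 in GFP against 4795, 4717 and 4722 in the T-MGM-labelled libraries. The groups were far apart relative to the spread within each. The mean fell from 5690 ± 73.1 to 4745 ± 43.6 (SD, n = 3 per group), by 16.6%, a log2 ratio of -0.26 (SE 0.03; 95% limits of the ratio 0.805 to 0.864; adjusted p = 1.69e-22, DESeq2). TFAM passed downwards in all 16 alternative fits, but its size depended on the scaling, from -0.09 after correction for GC content and length (adjusted p = 0.00168, DESeq2) to -0.42 in TPM values with a pseudocount of 0.1. Transcripts of TFAM have a GC content of 36.0%, against 50.5% for PPARGC1B, whose value hardly moved under that correction (-0.49).

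TFB2M (chromosome 1, 246540561 to 246566261, minus strand), the factor that opens mitochondrial promoters with the polymerase POLRMT, had 834.6, 766.6 and 849.8 normalized counts in GFP against 797.3, 714.2 and 689.2 in T-MGM. The groups overlapped through T-MGM replicate 1. Its log2 fold change was -0.16 (SE 0.07; 95% limits of the ratio 0.811 to 0.993; adjusted p = 0.0874, DESeq2), and without T-MGM replicate 1 it passed at -0.22 (adjusted p = 0.0254, DESeq2), as it did with total-count scaling (-0.21, adjusted p = 0.0152, DESeq2) and in filtered TPM values (-0.28, adjusted p = 0.0214, limma). POLG (chromosome 15, 89305198 to 89334861, minus strand) had 2435, 2416 and 2384 normalized counts in GFP against 2464, 2325 and 2425 in T-MGM. These overlapped, and the log2 ratio of -0.0034 (SE 0.04; 95% limits of the ratio 0.947 to 1.05; adjusted p = 0.962, DESeq2) did not pass. POLG shares 783 exonic bases with POLGARF on its own strand and 458 with FANCI on the other.

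**Figure D3:**
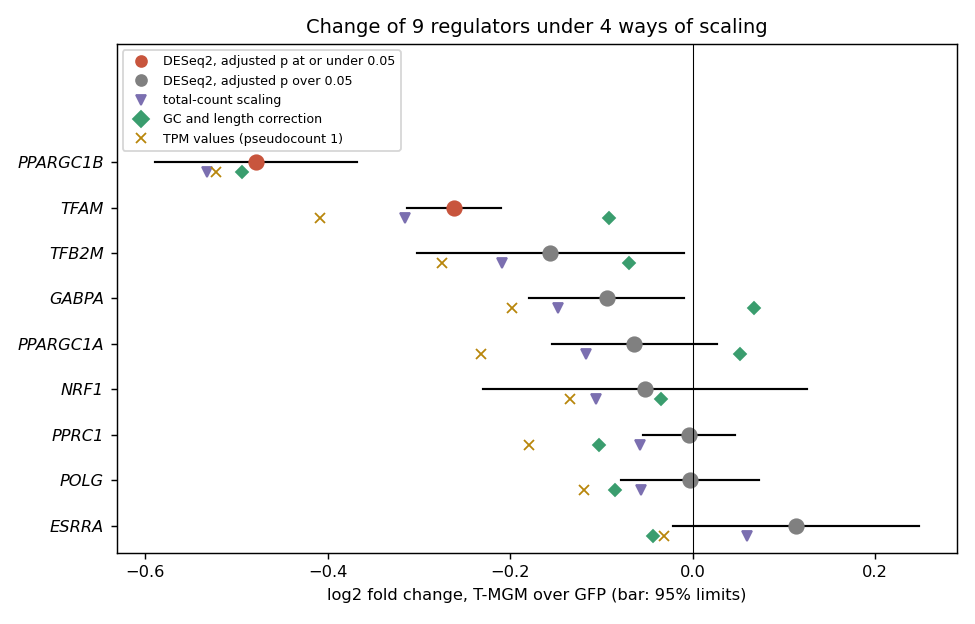
Log2 fold change of 9 regulators, T-MGM over GFP (horizontal axis); circles are DESeq2 values with 95% limits (red where the adjusted p was at or under 0.05), and smaller marks give total-count scaling, correction for GC content and length, and TPM values with a pseudocount of 1. PPARGC1B and TFAM lie left of 0 under all 4, TFAM moves to -0.09 after the correction, and PPARGC1A, GABPA and ESRRA change sign; ESRRG is left out for its wide limits.

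Levels were compared between genes only in TPM, which are scaled per length. TFAM was the most abundant regulator in GFP at 36.8 ± 2.66 TPM (SD, n = 3), followed by PPRC1 at 29.97 ± 0.123 TPM and POLG at 18.87 ± 0.527 TPM. TFB2M (9.99 ± 0.521 TPM), PPARGC1A (9.793 ± 2.21 TPM), GABPA (8.947 ± 0.17 TPM), ESRRA (7.283 ± 0.231 TPM) and NRF1 (6.717 ± 1.16 TPM) formed a middle range in GFP. PPARGC1B was at 4.433 ± 0.167 TPM in GFP and ESRRG at 0.01 to 0.06 TPM. The order of means was the same in the T-MGM-labelled libraries, from TFAM at 27.44 ± 1.42 TPM to PPARGC1B at 2.79 ± 0.31 TPM and ESRRG at 0.04 to 0.21 TPM (SD, n = 3). Neighbours whose libraries overlapped, and so did not differ beyond their spread, were TFB2M and PPARGC1A as well as PPARGC1A and GABPA in both groups, ESRRA and NRF1 in GFP, and TFAM and PPRC1 in T-MGM. PPARGC1A had an uneven TPM in GFP, at 11.61, 7.34 and 10.43, although its normalized counts in the same libraries differed little.

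**Figure D4:**
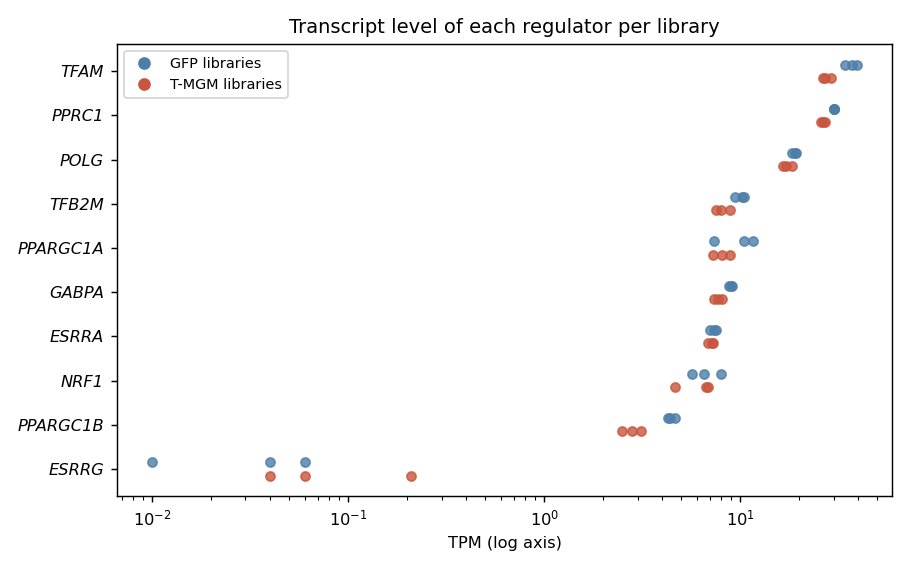
TPM of each regulator in every library on a log axis (horizontal), with GFP in blue and T-MGM in red. The genes run from TFAM at 36.8 TPM on average in GFP down to PPARGC1B at 4.433 TPM, and ESRRG lies far below the rest at 0.01 to 0.21 TPM.

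Genes around these regulators were counted in 7 lists written from general knowledge of the pathway. In each list, a count is of genes that passed the DESeq2 test over all genes, where 38.4% of tested genes passed and the median log2 fold change of tested genes was -0.0027. Among tested genes with a mean of at least 100 normalized counts, 56.3% passed. The lists were not matched to other genes for expression level. In filtered TPM values with a pseudocount of 1, 40.3% of genes passed and only 20.9% of those were higher in T-MGM. The median gene was at -0.13 there, so TPM splits of the lists stand beside a general downward shift. For partners and corepressors of the coactivators, 17 of 19 genes were tested and 13 passed, 6 upwards and 7 downwards, with a list median of -0.05. NRIP1, a corepressor that opposes PGC1α on estrogen-related receptors, fell from 5133 ± 204 to 4350 ± 68.4 normalized counts (SD, n = 3 per group; log2 ratio -0.24, SE 0.03, adjusted p = 3.8e-14, DESeq2). It was at -0.10 after correction for GC content and length and still passed (adjusted p = 0.00346, DESeq2). PERM1, a muscle regulator that acts with both coactivators, changed over 2-fold but from a low level, with raw counts of 5, 7 and 9 in GFP against 28, 23 and 52 in T-MGM (log2 ratio 1.86, SE 0.53, adjusted p = 0.00161, DESeq2). The transcriptional adaptor HCFC1 (0.12, adjusted p = 1.07e-12, DESeq2) and the acetyltransferase EP300 (0.07, adjusted p = 4.77e-05, DESeq2) rose slightly, but in TPM values they were at -0.06 and -0.08, and HCFC1 was at -0.01 after correction for GC content and length. The count for this list was 8 without T-MGM replicate 1, 8 after that correction, and 6 in TPM values with 0 upwards.

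Regulators that act upstream of PGC1α, among them the energy sensor AMPK, CREB coactivators and MEF2 factors, had all 26 genes tested and 16 that passed, 7 upwards and 9 downwards (median -0.05). The muscle and neural crest factor MEF2C rose by 0.36 (SE 0.05, adjusted p = 5.91e-13, DESeq2) and the CREB coactivator CRTC1 by 0.37 (SE 0.06, adjusted p = 2.71e-10, DESeq2). Both kept direction and call under total-count scaling, after correction for GC content and length, where CRTC1 was at 0.24, and in TPM values. Their relatives MEF2D (-0.16, adjusted p = 4.28e-05, DESeq2), CRTC2 (-0.18, adjusted p = 0.00109, DESeq2) and CRTC3 (-0.14, adjusted p = 0.0116, DESeq2) fell, as did the AMPK subunits PRKAA1 (-0.20, adjusted p = 6.55e-09, DESeq2) and PRKAB2 (-0.43, adjusted p = 9.49e-08, DESeq2). These 5 were named after their values were seen and stayed negative under the same 3 scalings, although PRKAA1 did not pass after the correction (-0.04, adjusted p = 0.38, DESeq2) nor MEF2D in TPM values (-0.23, adjusted p = 0.0724, limma). MEF2A, another relative of MEF2C, rose by 0.23 (adjusted p = 3.2e-09, DESeq2) but did not pass in TPM values (0.08, adjusted p = 0.369, limma). The other AMPK subunits on the list, PRKAA2 (0.81), PRKAB1 (0.06), PRKAG1 (-0.06) and PRKAG2 (-0.05), did not pass in the reported fit. MEF2A and these subunits were also named after their values were seen. In TPM values the list split into 3 upwards and 8 downwards.

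Proteins that copy, transcribe and maintain mitochondrial DNA had 23 genes tested and 10 that passed, 7 downwards and 3 upwards (median -0.07). In TPM values 11 passed downwards and 0 upwards (median -0.21), where the median gene was at -0.13. SSBP1, which covers the single strands of mitochondrial DNA, fell from 3559 ± 74.4 to 3050 ± 76.8 normalized counts (SD, n = 3 per group; log2 ratio -0.22, SE 0.03, adjusted p = 2.32e-10, DESeq2). The transcription terminator MTERF1 fell from 850.5 ± 35.5 to 653.3 ± 33.2 (SD, n = 3 per group; log2 ratio -0.38, SE 0.07, adjusted p = 6.65e-07, DESeq2). The matrix protease LONP1, which is known to degrade TFAM, rose from 7020 ± 213 to 8378 ± 167 (SD, n = 3 per group; log2 ratio 0.26, SE 0.02, adjusted p = 1.27e-23, DESeq2) but was at -0.14 in TPM values. After correction for GC content and length SSBP1 was at -0.09, MTERF1 at -0.21 and LONP1 at 0.12, all still past the test. The others that rose, TK2 (0.70) and EXOG (0.35), were chosen for mention after their values were seen, and in TPM values neither TK2 (0.17, adjusted p = 0.541, limma) nor EXOG (0.36, adjusted p = 0.107, limma) passed. POLRMT (-0.0093, adjusted p = 0.902, DESeq2), TFB1M (-0.07, adjusted p = 0.541, DESeq2) and the helicase TWNK (-0.05, adjusted p = 0.62, DESeq2) did not pass. They too were named after their values were seen, and POLRMT passed at -0.17 after correction for GC content and length (adjusted p = 0.000647, DESeq2).

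Most messages encoded by mitochondrial DNA itself were higher in normalized counts in the T-MGM-labelled libraries. Of the 13, 11 rose, 1 fell and 1 did not pass, with a median log2 ratio of 0.15. MT-ND5 rose from 341600 ± 8450 to 451400 ± 1100 normalized counts (SD, n = 3 per group; log2 ratio 0.40, SE 0.02, adjusted p = 1.46e-137, DESeq2), MT-CYB by 0.24 (adjusted p = 1.83e-89, DESeq2) and MT-ND2 by 0.26 (adjusted p = 7.33e-89, DESeq2). MT-ND6, the message read from the other strand of the circle, fell from 30130 ± 170 to 25390 ± 1570 (SD, n = 3 per group; log2 ratio -0.25, SE 0.05, adjusted p = 9.09e-06, DESeq2), and MT-ATP8 did not pass (0.05, adjusted p = 0.235, DESeq2); both were named after their values were seen. If the libraries did not keep strand, reads of the opposite-strand precursor over the same bases would be counted with MT-ND6. Together the 13 took 10.477%, 10.379% and 10.553% of all counts in GFP and 11.459%, 11.293% and 11.494% in T-MGM. Each share in T-MGM exceeded each in GFP, 11.42% ± 0.108 against 10.47% ± 0.087 (SD, n = 3 per group; 2-sided exact permutation p of 0.1, the smallest possible). This rise depended on the unit: in TPM values the list split into 4 upwards and 4 downwards with a median of -0.02, where the median gene was at -0.13, and its sum fell from 193000 ± 2610 to 186500 ± 1970 TPM. MT-ND5, MT-CYB and MT-ND2 stayed higher and MT-ND6 lower in that unit, while 6 of the others that had risen in counts turned.

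Nuclear genes of respiration and fuel oxidation known as targets of this network had all 38 tested and 23 that passed, 14 downwards and 9 upwards (median -0.02). SDHB, the iron-sulfur subunit of succinate dehydrogenase, fell from 6099 ± 117 to 4553 ± 62.4 normalized counts (SD, n = 3 per group; log2 ratio -0.42, SE 0.03, adjusted p = 2.46e-55, DESeq2). UQCRC1 of complex III rose from 4408 ± 94.4 to 6136 ± 95.3 (SD, n = 3 per group; log2 ratio 0.48, SE 0.03, adjusted p = 1.71e-67, DESeq2) and COX8A of complex IV from 2376 ± 62.9 to 3386 ± 127 (log2 ratio 0.51, SE 0.04, adjusted p = 1.06e-39, DESeq2). These 3 kept their directions in TPM values and after correction for GC content and length, where COX8A was at 0.32. The list split into 2 upwards and 22 downwards in TPM values (median -0.16), where the median gene was at -0.13.

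The list of antioxidant enzymes that PGC1α is known to induce had 8 of 10 genes tested, 5 that rose and none that fell (median 0.32). It also holds the mitochondrial carrier UCP3, named after its value was seen, which did not pass (0.47, adjusted p = 0.347, DESeq2). Catalase (CAT) rose from 977.1 ± 24.1 to 1525 ± 10.3 normalized counts (SD, n = 3 per group; log2 ratio 0.64, SE 0.05, adjusted p = 1e-31, DESeq2), GPX1 from 3425 ± 43.7 to 4530 ± 151 (log2 ratio 0.40, SE 0.03, adjusted p = 3.34e-35, DESeq2) and PRDX5 by 0.30 (SE 0.05, adjusted p = 3.01e-08, DESeq2). The others that rose, TXN2 (0.14) and TXNRD2 (0.34), were named after their values were seen. CAT and GPX1 passed under all 3 other scalings, GPX1 at 0.22 after correction for GC content and length, whereas after that correction TXN2 (adjusted p = 0.798, DESeq2), TXNRD2 (adjusted p = 0.0653, DESeq2) and PRDX5 (adjusted p = 0.0524, DESeq2) did not, and TXN2 was at -0.02 in TPM values. The list count was 3 after that correction (median 0.16) and 3 in filtered TPM values (median 0.15, where the median gene was at -0.13). SOD2, also named after its value was seen, was at -0.11 (adjusted p = 0.0631, DESeq2) and did not pass. With total-count scaling it passed downwards (-0.17, adjusted p = 0.00307, DESeq2). The SOD2 symbol has 2 gene rows, and the row with the most counts was used, so reads may be split.

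For mitochondrial fusion, fission and clearance, 13 of 14 genes were tested and 10 passed, 6 downwards and 4 upwards (median -0.06). The mitophagy receptors BNIP3 and BNIP3L, both known to respond to low oxygen, rose from 4788 ± 98.2 to 8879 ± 216 (log2 ratio 0.89, SE 0.03, adjusted p = 1.25e-257, DESeq2) and from 3196 ± 41.3 to 5115 ± 143 normalized counts (SD, n = 3 per group; log2 ratio 0.68, SE 0.03, adjusted p = 3.57e-103, DESeq2). MFN2, a fusion protein of the outer membrane and a known PGC1 target, fell from 9027 ± 64.4 to 7426 ± 62.1 (SD, n = 3 per group; log2 ratio -0.28, SE 0.02, adjusted p = 4.38e-39, DESeq2). These 3 kept direction and call under total-count scaling, after correction for GC content and length and in TPM values. The remaining genes that rose were the mitophagy kinase PINK1 (0.53) and the fission factor FIS1 (0.14), both named after their values were seen, and FIS1 turned to -0.01 and -0.02 in the latter 2 settings.

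**Figure D5:**
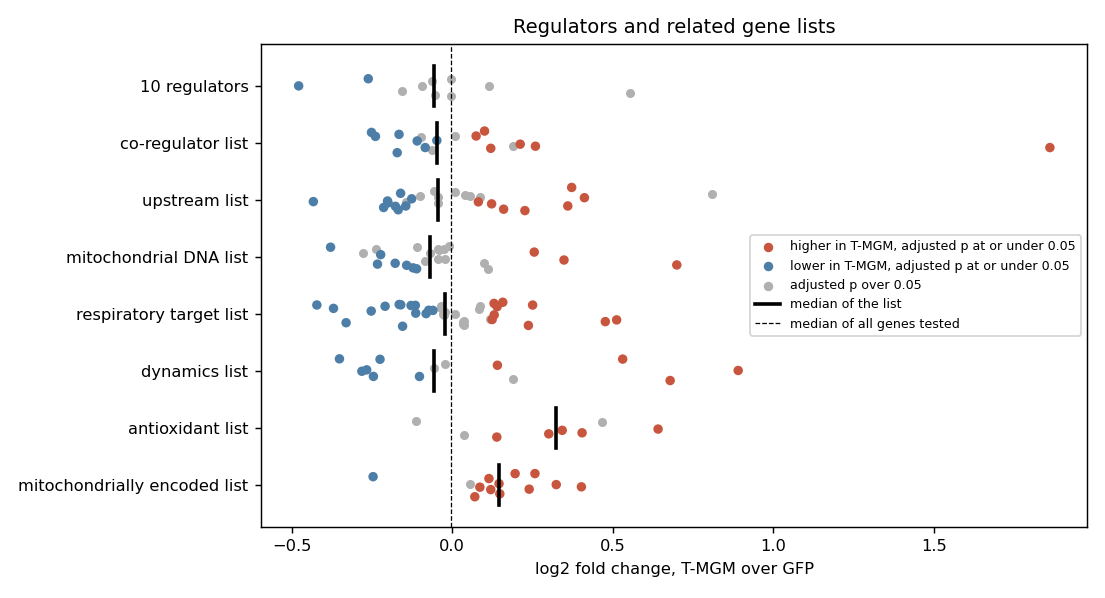
Log2 fold change, T-MGM over GFP (horizontal axis), of every tested gene in the 10 regulators and 7 related lists (vertical position within a list is jitter); red and blue passed upwards and downwards, grey did not pass, thick bars are list medians and the dashed line is the median of all genes tested. The antioxidant and mitochondrially encoded lists have medians of 0.32 and 0.15, the others lie from -0.07 to -0.02.

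The genes whose pattern over the 6 libraries was most like that of PPARGC1A were RRP36, TMEM248, MAVS, NMT1 and SRP14. Likeness was the root mean square difference of log2 (normalized count + 1) after centring on each gene's mean, and was 0.00747 for RRP36 and 0.0137 for SRP14 among 11652 genes with a mean of at least 100 normalized counts. PPARGC1A varied little, so these are genes that were likewise nearly level across the libraries.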

How the data were processed

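The deposited counts are whole reads per gene that the authors made, per the study's methods and the submitters' notes, by trimming with cutadapt 1.8.1, aligning to GRCh38 with STAR 2.7.7a and counting uniquely aligned reads with featureCounts, with no normalization. The TPM values were also deposited by the authors (RSEM 1.3.0 is named), with 2 decimals. The labels name a kit without strand information and the study's methods a strand-specific one, so overlapping genes are uncertain. All sample columns were mapped by title. DESeq2 1.42.0 (R 4.3.3; 2-sided Wald test, group as the only term, no shrinkage, independent filtering at 0.05) was fitted on the whole count table, with Benjamini-Hochberg adjustment over all genes tested. Other fits used the edgeR 4.0.16 quasi-likelihood test, TMM or total-count scaling, at least 10 counts in 3 libraries, no independent filtering, lowess offsets for GC content and length (span 0.3), a replicate block, leaving out each library, and limma 3.58.1 with a trend on log2 (TPM + 1) or (TPM + 0.1), at TPM of at least 0.5 in 3 libraries or unfiltered. Normalized counts are counts over the DESeq2 size factors. The regulators and lists were chosen with earlier results of these data known. Named genes are the 10 regulators, the 3 smallest adjusted p per list, list genes past 2-fold, the markers, MAFG and MITF, and the 5 most like PPARGC1A; others are said to be chosen after their values were seen. A gene that this rule names in the upstream list is not reported here. Intervals and SE include the spread between libraries. Gene positions are from GENCODE release 44.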

Additional observations from a re-analysis of the deposited data

How the results depend on the processing

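PPARGC1B and TFAM kept direction and call in all 16 alternatives. The number of regulators that passed, 2 in the reported fit, was 5 with total-count scaling, 5 in TPM values with either pseudocount and 4 in unfiltered TPM values, and ranged from 2 to 3 when 1 library was left out (3 without T-MGM replicate 1, through TFB2M); the number changed over 2-fold was 0 throughout. PPARGC1A passed with total-count scaling (-0.1176), turned after correction for GC content and length (0.05205) and ranged from -0.08691 to -0.04186 when 1 library was left out. Other values that turned were PPRC1 with TMM factors (0.006785), without GFP replicate 1 (0.001288) and without T-MGM replicate 1 (0.01602), from -0.01586 with 1 library left out; ESRRA after that correction (-0.04315) and in TPM values (-0.03107, and -0.0349 with the smaller pseudocount); NRF1 without T-MGM replicate 1 (0.06109), from -0.1429; GABPA after the correction (0.06707); and POLG with TMM factors (0.007541), without GFP replicate 1 (0.003106) and without T-MGM replicate 2 (0.0207), from -0.02038. None of these passed. The causes were not tested.

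Counts of list genes that passed moved as follows. The co-regulator list (13) gave 8 after the correction, 8 with the replicate block, 6, 6 and 4 in the TPM fits, and 8 to 11 with 1 library left out. The upstream list (16) gave 7 in unfiltered TPM values, the mitochondrial DNA list (10) 6 with the replicate block, and the mitochondrially encoded list (12) 2 in unfiltered TPM values, while the antioxidant list (5) gave 3 after the correction, 3 in filtered TPM values with either pseudocount and 2 unfiltered. With 1 library left out the ranges were 14 to 16, 7 to 8, 10 to 13 and 5 to 6 for these lists, 18 to 23 for the respiratory targets (23) and 9 to 10 for the dynamics list (10). The mitochondrially encoded share rose by 0.945 percentage points of counts (0.9 to 1.007 with 1 library left out) and fell by 0.6456 as a share of TPM. The PPARGC1B share fell by 2.55 points of family TPM and by 4.27 of family counts. Over all genes, the median log2 fold change at a mean of at least 50 normalized counts was -0.0097 in the reported fit, -0.06 with total-count scaling and -0.13 in TPM values, and of the genes that passed equal numbers were higher and lower (3675 each) in the reported fit, while 38.7% and 20.9% were higher in the others; the genes past 2-fold numbered 885, 875 and 133, with 369 at the smaller pseudocount and 126 unfiltered.

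Libraries with the same replicate number in their titles showed no visible shared deviation. Their deviations correlated at -0.002344, -0.04038 and 0.04256, and those of differently numbered pairs at -0.08922 to 0.08749. Such values cannot tell whether same-numbered libraries shared a culture or batch. With the replicate block 735 genes were past 2-fold, 2 regulators still passed (PPARGC1B at -0.48 and TFAM at -0.26) and PPARGC1A stood at -0.07. Depth limited ESRRG alone among the 10, which the edgeR fit, the minimum of 10 counts and the TPM filter removed.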
